A study of Mus musculus with 8 samples.

Results

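This account covers the interleukin-6 (IL-6) family in cultured fibroblasts of mouse embryos (MEFs): its ligands Il6, Il11, Lif and Clcf1, the receptor chains Il6st, Osmr, Lifr and Il11ra1, the transcription factor Stat3 and its inhibitor Socs3. Every probe set whose platform annotation names 1 of these 10 genes and no other gene was taken, which gave 24 of the 45037 probe sets tested, for 9 of the 10 genes and of 18193 genes in all. Il11ra1 was not analysed here, since no probe set met the rule. The genes have 1 probe set each for Il6 and Il11, 2 for Lif, 3 each for Clcf1, Osmr, Lifr and Socs3, and 4 each for Il6st and Stat3. The study compared 4 MEF samples without Cebpg (Cebpg-/-) with 4 wild type (WT) samples. Cebpg encodes C/EBPγ, a basic leucine zipper protein that pairs with other proteins of this class on DNA. Both groups are labelled C57BL/6, came from E13.5 embryos, and were taken at passage 3, 48 hours after plating at equal density, with no agent added beyond the growth medium. Each sample was read on 1 array, and values are given as log2 after RMA (robust multi-array average). The replicates are called biological, with no word on whether each came from its own embryo, so a p-value here reflects only the spread among the arrays, which may be technical.

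Cytokines of this family act through receptor complexes built around 1 shared signalling chain, gp130, which the gene Il6st encodes. Each ligand adds its own partner: IL-6 and IL-11 first bind a ligand-specific receptor chain. LIF and oncostatin M bring a second signalling chain, LIFR or OSMR, beside gp130. CLCF1 uses LIFR beside gp130 too, together with the receptor chain CNTFR. Janus kinases bound to these chains phosphorylate STAT3, which enters the nucleus and switches on genes that include Socs3. The SOCS3 protein then binds gp130 and shuts the kinases off. Fibroblasts are a known source of IL-6, IL-11 and LIF, and C/EBP factors, AP-1 and NF-κB are known regulators of the Il6 promoter.

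The promoters of the 3 ligands with a RefSeq entry and of Socs3 are shown because Il11 rose while Il6 and Lif did not pass the test, and Socs3 is a direct STAT3 target. Each runs 5′ to 3′ on the gene's strand from 250 bases before to 50 bases after the annotated start (RefSeq, GRCm38.p6), in lower case, with capitals for matches on either strand to the 7 searched motifs.
Il6, chr5:30012864-30013163, plus strand: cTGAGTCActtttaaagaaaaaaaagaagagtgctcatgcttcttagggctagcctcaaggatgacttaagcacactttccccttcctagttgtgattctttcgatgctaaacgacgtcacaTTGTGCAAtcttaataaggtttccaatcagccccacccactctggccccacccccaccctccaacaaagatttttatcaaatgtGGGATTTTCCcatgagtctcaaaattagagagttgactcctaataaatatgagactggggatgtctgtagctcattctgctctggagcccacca
Il11, chr7:4778092-4778391, minus strand: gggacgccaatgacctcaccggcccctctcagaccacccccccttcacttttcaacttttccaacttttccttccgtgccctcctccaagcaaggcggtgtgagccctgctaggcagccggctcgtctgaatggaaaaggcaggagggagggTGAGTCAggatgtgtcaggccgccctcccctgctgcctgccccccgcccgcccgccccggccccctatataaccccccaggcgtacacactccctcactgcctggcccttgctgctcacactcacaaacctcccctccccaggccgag
Lif, chr11:4257318-4257617, plus strand: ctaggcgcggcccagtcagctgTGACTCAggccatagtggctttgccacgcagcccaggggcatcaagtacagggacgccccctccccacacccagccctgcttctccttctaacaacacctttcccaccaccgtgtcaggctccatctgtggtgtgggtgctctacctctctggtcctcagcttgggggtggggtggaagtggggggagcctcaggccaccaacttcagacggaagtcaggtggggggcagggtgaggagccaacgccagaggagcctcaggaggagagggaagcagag
Socs3, chr11:117969317-117969616, minus strand: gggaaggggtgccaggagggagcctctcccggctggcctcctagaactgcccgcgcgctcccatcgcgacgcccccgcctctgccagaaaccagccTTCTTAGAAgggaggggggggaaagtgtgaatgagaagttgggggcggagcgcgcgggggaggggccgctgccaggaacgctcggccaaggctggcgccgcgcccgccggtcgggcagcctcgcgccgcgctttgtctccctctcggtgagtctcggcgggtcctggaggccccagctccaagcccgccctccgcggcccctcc
The capitals in Il6 mark an AP-1 match (TGANTCA) at -249 to -243, a C/EBP match (TTGCNNAA) at -128 to -121 and an NF-κB match at -44 to -35, counted from 0 at the start site. Il11 and Lif each held 1 AP-1 match, at -98 to -92 and at -228 to -222. Socs3 held 1 match to the relaxed STAT motif TTCNNNGAA, at -154 to -146. RefSeq gave 12 windows for 9 of the 10 genes. The AP-1 motif stood in 4 of the 12 windows (33.3%), the remaining one in Osmr at 3 to 9, against 7.81% of all 32851 promoter windows. This share was not tested, and of the genes with an AP-1 match only Il11 was called. The C/EBP and NF-κB motifs, matched in the Il6 window alone, stood in 10.8% and 5.56% of all windows. The relaxed STAT motif, matched in the Socs3 window alone, stood in 8.30%. The C/EBP-ATF element TGATGNAA (3.97% of all windows), the strict STAT motif TTCCNGGAA (1.15%) and the E-box CACGTG (7.15%) had no match in the 12 windows. The windows of Il6st, Lifr, Il11ra1 and Stat3, and the second window of Il11, held none of the 7 motifs. A match describes the letters only.

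Cebpg was read by 3 probe sets, of which 1 (1451639_at) fell, at 5.53 ± 0.12 in Cebpg-/- and 6.31 ± 0.07 in WT (SD, n = 4 each; adjusted p = 0.000593), while the others differed by -0.17 and 0.26 without passing (adjusted p = 0.275 and 0.0942). The sources used here do not place these probe sets relative to the deletion. Array medians (log2) lay between 2.70 and 2.72 on Cebpg-/- arrays, and at 2.75, 2.76, 2.76 and 2.72 on WT replicates 1 to 4. The 12 fibroblast markers averaged 9.23 to 9.55 per Cebpg-/- array and 9.54 to 9.80 per WT array, and 6 of them were called lower; their part in the results was not tested. The mean of 20 leukocyte markers ran from 4.75 to 7.21 on Cebpg-/- arrays and from 3.56 to 5.29 on WT arrays, so the ranges overlapped with 1 Cebpg-/- array. In RNA of a whole culture, fewer cells of a type and less RNA per cell cannot be told apart. Endothelial, epithelial, muscle and neural marker lists averaged 2.27 to 3.68 per array, and 2 of their genes were called higher (Krt19 and Sox2) and 2 lower (Epcam and Tubb3). Over all genes 7.11% were called higher and 3.24% lower. Single genes of these lists were far brighter than the averages, such as Acta1 (8.97 in Cebpg-/- and 8.96 in WT) and Tubb3 (5.72 and 6.85).

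Among the ligands Il11 and Clcf1 rose in Cebpg-/- MEFs, among the receptor chains Lifr fell, and Stat3 fell modestly. Il6, Lif, Il6st, Osmr and Socs3 did not pass the test. The calls were not equally stable when each array was left out in turn. The Il11 call held in all 8 such fits, and so did 1 of the 3 Clcf1 calls. The other Clcf1 calls held in 2 and 1 of the 8, Lifr in 2, and Stat3 in 2 and 1. With the leukocyte marker mean as a covariate 2 of the 24 probe sets were called higher and none lower. Neither Stat3 call held after array medians were subtracted. Of the 24 probe sets 4 were called higher (16.7%; over all probe sets percent called higher was 4.82) and 3 lower (12.5%; over all probe sets 2.78), by limma with Benjamini-Hochberg adjustment over all 45037 probe sets at a threshold of 0.05. The probe sets of 1 gene read the same transcripts and are not independent. The genes were also chosen with earlier results of these data known. These shares therefore do not test whether the family changed more than other genes. Counted by the brightest probe set of each gene, 2 of 9 genes were higher and 2 lower, where 7.11% and 3.24% of 18193 genes were so called. In 3 of the 24 all Cebpg-/- values lay above all WT values, and in 3 all lay below (8.71% and 6.31% over all probe sets). The median difference of the 24 was -0.03, against -0.02 over all probe sets. In 7 of the 24 both group means lay under 2.73, the median of all values, where RMA values can understate a change.

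**Figure D1:**
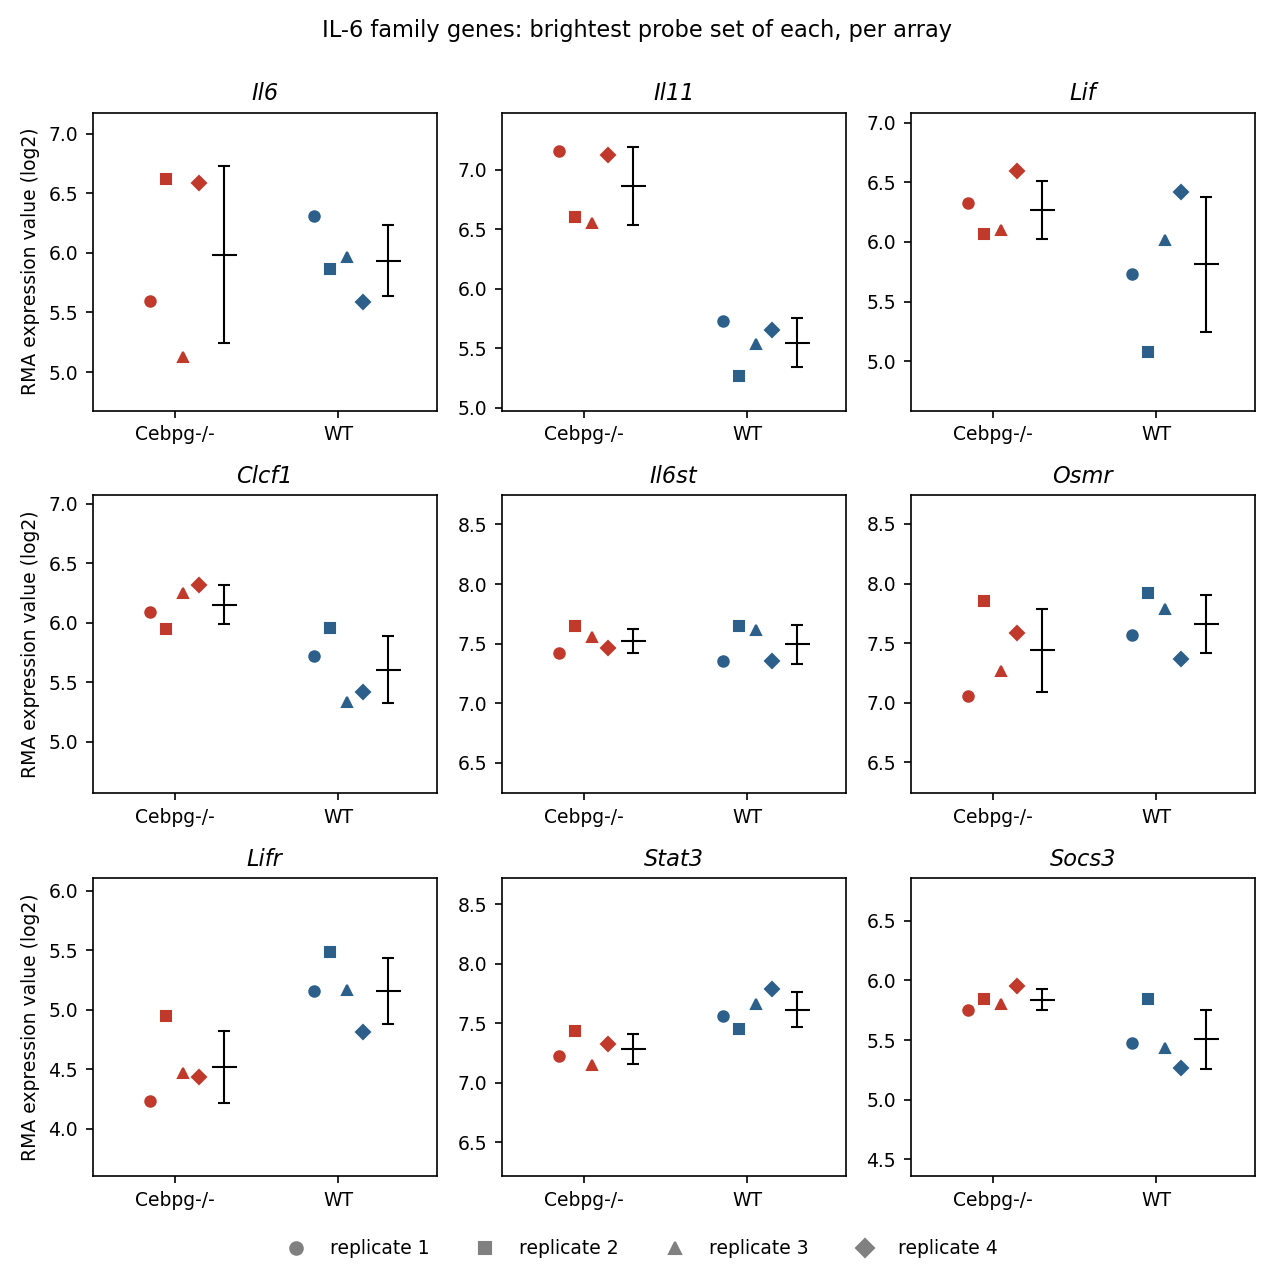
RMA expression values (log2) of the brightest probe set of each of the 9 measured genes, Cebpg-/- arrays at left and WT arrays at right of each panel, each panel spanning the same range; black bars are mean ± SD (n = 4 each) and symbols number the replicates. Il11 separates the groups, with 6.55 to 7.16 in Cebpg-/- against 5.27 to 5.73 in WT, whereas Il6 is spread most within Cebpg-/-.

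Il11, which in fibroblasts acts back on the cells that make it through IL-11 receptor and gp130, showed the largest difference of the 24 probe sets. Its probe set (1449982_at) read 7.16, 6.60, 6.55 and 7.13 in Cebpg-/- replicates 1 to 4, against 5.73, 5.27, 5.54 and 5.66 in WT replicates 1 to 4. The lowest Cebpg-/- value thus stood above the highest WT value by more than the whole spread within WT. The means were 6.86 ± 0.33 in Cebpg-/- and 5.55 ± 0.20 in WT (SD, n = 4 each), a 2.48-fold rise (log2 difference 1.31, 95% interval 0.96 to 1.66, adjusted p = 0.00168). The call held without each array in turn, with differences of 1.21 to 1.41.

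Clcf1, a cytokine that signals through CNTFR, LIFR and gp130, rose on all 3 of its probe sets. The least variable one (1437271_at) read 5.87, 5.79, 5.81 and 5.88 in Cebpg-/-, against 5.22, 5.43, 5.11 and 5.34 in WT. All Cebpg-/- values were higher than all WT values, and they lay closer together than the WT values. The rise was 1.48-fold (0.57 on the log2 scale, adjusted p = 0.00261) and was called without each array in turn. The brightest probe set (1437270_a_at) read 6.09, 5.95, 6.25 and 6.31 in Cebpg-/- and 5.72, 5.95, 5.34 and 5.42 in WT, with WT replicate 2 level with the lowest Cebpg-/- array. Its rise was 0.54 (adjusted p = 0.0387). The remaining one (1450262_at) ran from 5.08 to 5.26 in Cebpg-/- and from 4.61 to 4.95 in WT, a rise of 0.34 (adjusted p = 0.0395). Both of these calls lay close to the threshold and were lost when most single arrays were left out. The differences then ran from 0.45 to 0.66 for 1437270_a_at and from 0.26 to 0.38 for 1450262_at. The brightest probe set passed only without Cebpg-/- replicate 2 or WT replicate 2, and lay at 0.0618 to 0.106 without any 1 of the other 6 arrays. The probe set 1450262_at passed only without WT replicate 4, with 0.0510 to 0.113 otherwise.

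Il6, the founding cytokine of the family and a marker of fibroblast inflammation, had no common direction. It read 5.60, 6.62, 5.13 and 6.59 in Cebpg-/-, against 6.31, 5.87, 5.97 and 5.59 in WT (1450297_at). Cebpg-/- replicates 2 and 4 stood above every WT array, and Cebpg-/- replicate 3 below every WT array. The SD was 0.74 in Cebpg-/- and 0.30 in WT (n = 4 each). The difference of the means was 0.05 with an interval of -0.65 to 0.75 (adjusted p = 0.945), so the data leave room for a sizeable change in either direction. Its sign turned when Cebpg-/- replicate 2 (-0.16) or 4 (-0.15) or WT replicate 4 (-0.06) was left out. The interval lies below that of Il11, but the difference between the responses of both genes was not tested.

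Lif, which keeps mouse embryonic stem cells undifferentiated and is made by fibroblast feeder layers, read 6.33, 6.06, 6.10 and 6.59 in Cebpg-/-, against 5.73, 5.08, 6.02 and 6.42 in WT (1421207_at). The Cebpg-/- arrays lay within 0.53 of each other, and WT replicate 4 was above all of them but 1. The difference of 0.46 had an interval of -0.08 to 1.00 (adjusted p = 0.289), and it was 0.22 without WT replicate 2 and 0.66 without WT replicate 4. The second Lif probe set (1450160_at) was dim, between 2.51 and 2.69 in Cebpg-/- and between 2.49 and 2.76 in WT.

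Il6st, the shared chain gp130, gave 4 probe sets that did not share a direction. The brightest (1452843_at) read 7.42, 7.64, 7.55 and 7.47 in Cebpg-/-, against 7.36, 7.65, 7.62 and 7.35 in WT. The groups covered nearly the same range, and the difference was 0.03 with an interval of -0.17 to 0.22 (adjusted p = 0.893). Probe set 1437303_at read 5.87, 6.45, 6.27 and 6.09 in Cebpg-/- and 6.48, 6.66, 6.45 and 6.67 in WT. Here every Cebpg-/- value lay below every WT value, Cebpg-/- replicate 2 by the narrowest margin, and the difference of -0.40 did not pass (adjusted p = 0.0681). The remaining probe sets differed by 0.23 (1460295_s_at, adjusted p = 0.170) and -0.24 (1421239_at, adjusted p = 0.126). Probe set 1437303_at passed after quantile normalization (adjusted p = 0.0464), with an intensity trend and robust variance fit together (0.0472) and without Cebpg-/- replicate 2 (0.0217). It did not pass without any other single array (0.0996 to 0.153). With the leukocyte marker mean as a covariate its difference was -0.27 (adjusted p = 0.487).

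Osmr, the chain that pairs with gp130 to receive oncostatin M, read 7.06, 7.85, 7.27 and 7.58 in Cebpg-/-, against 7.57, 7.92, 7.78 and 7.37 in WT (1418674_at). Cebpg-/- replicates 1 and 3 were below all WT arrays, whereas replicates 2 and 4 lay within their range. The difference was -0.22 with an interval of -0.60 to 0.16 (adjusted p = 0.477), and it ran from -0.36 without Cebpg-/- replicate 2 to -0.09 without Cebpg-/- replicate 1. Its other probe sets lay between 1.35 and 2.95 in Cebpg-/- and between 1.43 and 2.67 in WT, near the bottom of the scale.

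Lifr, the chain that LIF and CLCF1 share, fell on its brightest probe set (1454984_at). It read 4.24, 4.95, 4.47 and 4.43 in Cebpg-/-, against 5.16, 5.49, 5.16 and 4.82 in WT. Cebpg-/- replicate 2 was the only Cebpg-/- array above a WT array, WT replicate 4. Lifr fell to 4.52 ± 0.30 in Cebpg-/-, against 5.16 ± 0.27 in WT (SD, n = 4 each), which is 64.4% of the WT level (log2 difference -0.63, interval -1.0 to -0.27, adjusted p = 0.0454). The other 2 probe sets were dim and differed by -0.31 (1450207_at, adjusted p = 0.121) and -0.16 (1425107_a_at, adjusted p = 0.319). The call held only without Cebpg-/- replicate 2 or WT replicate 4, and without any 1 of the other 6 arrays the adjusted p was 0.0929 to 0.124. Averaged over its probe sets, Lifr differed by -0.37 (adjusted p = 0.0533 over genes).

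Stat3, the factor through which gp130 acts on genes, fell on both of its bright probe sets. Probe set 1426587_a_at read 7.23, 7.43, 7.15 and 7.33 in Cebpg-/-, against 7.56, 7.45, 7.66 and 7.79 in WT. Probe set 1460700_at read 7.13, 7.35, 7.06 and 7.32 in Cebpg-/-, against 7.42, 7.59, 7.60 and 7.55 in WT. In both, all Cebpg-/- arrays lay below all WT arrays, with Cebpg-/- replicate 2 the closest to WT. The levels were 79.5% of WT (log2 difference -0.33, adjusted p = 0.0496) and 79.9% of WT (-0.32, adjusted p = 0.0372). The other 2 probe sets, under the array-wide median, differed by -0.23 and -0.22 (adjusted p = 0.141 and 0.123). Both calls sat close to the threshold: 1426587_a_at passed only without Cebpg-/- replicate 2 or WT replicate 2 (0.0735 to 0.133 otherwise), 1460700_at only without Cebpg-/- replicate 2 (0.0520 to 0.109 otherwise), and subtracting array medians gave 0.080 and 0.0532.

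Socs3, the feedback inhibitor that STAT3 induces, was higher by sign on its 3 probe sets, and none passed. The brightest (1455899_x_at) read 5.75, 5.85, 5.80 and 5.96 in Cebpg-/-, against 5.48, 5.85, 5.43 and 5.27 in WT. WT replicate 2 alone reached the Cebpg-/- range. The difference was 0.33 (interval 0.09 to 0.58, adjusted p = 0.101), with 0.29 for 1456212_x_at (adjusted p = 0.168) and 0.26 for 1416576_at (adjusted p = 0.0872). Without WT replicate 2 the first 2 passed, at 0.45 (adjusted p = 0.0130) and 0.40 (0.0344), and 1416576_at passed after array medians were subtracted (0.29, 0.0447). Without any other single array the first 2 did not pass, with adjusted p up to 0.216 and 0.341. With the leukocyte marker mean as a covariate 1455899_x_at did not pass (0.35, adjusted p = 0.372). The suffix x marks probe sets whose probes can match other transcripts.

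**Figure D2:**
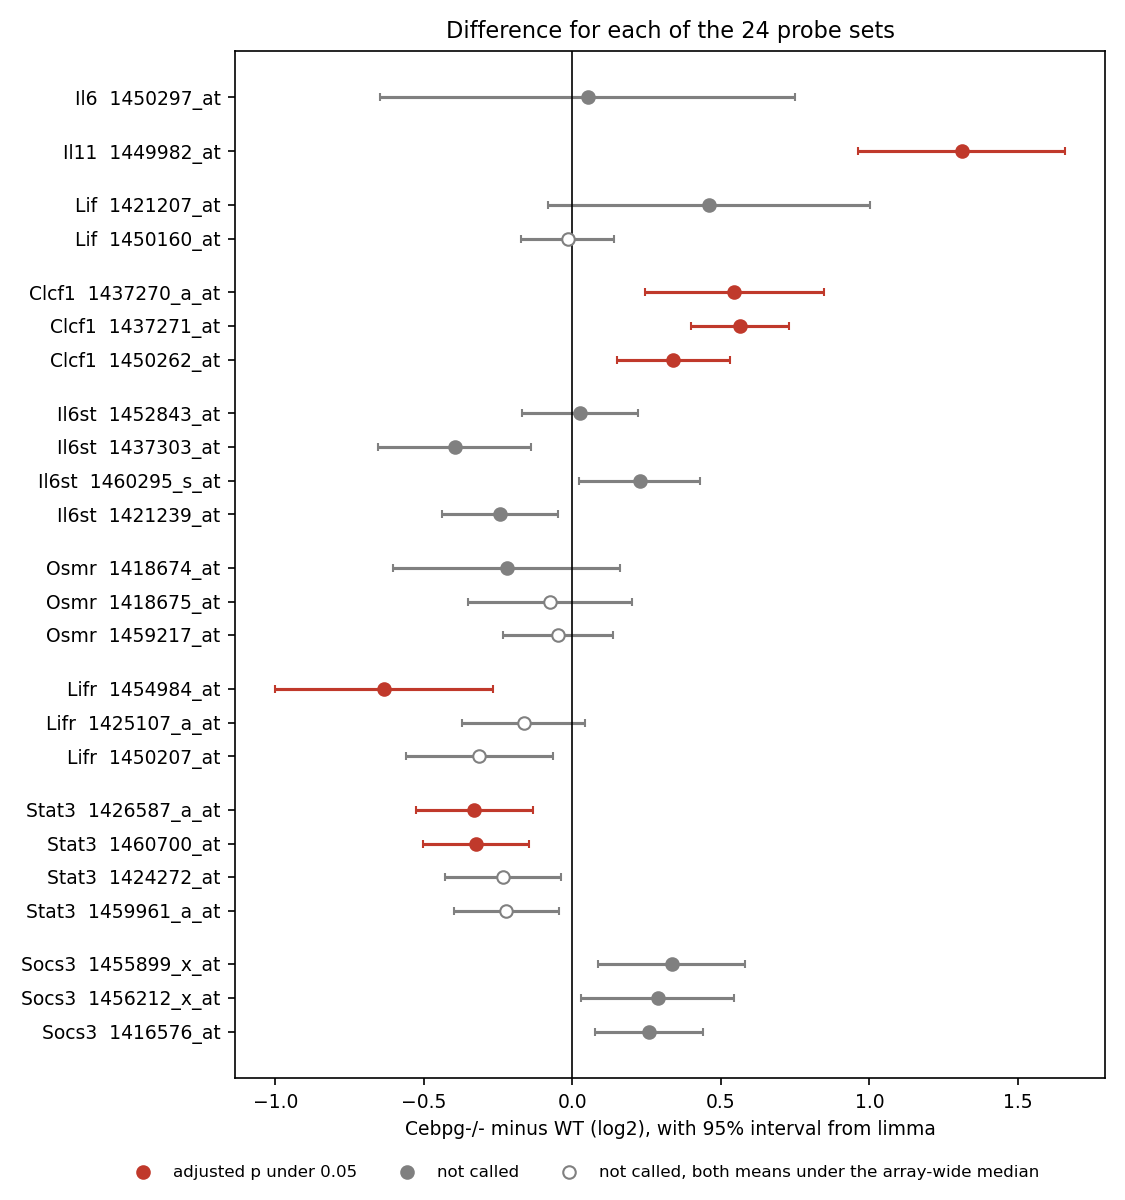
Difference of Cebpg-/- minus WT (log2) for each of the 24 probe sets, with its 95% interval from limma (n = 4 each); red marks an adjusted p under 0.05 over all probe sets, and open circles mark probe sets with both group means under the array-wide median. Il11 stands at 1.31, the 3 Clcf1 probe sets at 0.34 to 0.57, the brightest Lifr probe set at -0.63 and both bright Stat3 probe sets at -0.33 and -0.32.

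The leukocyte marker level averaged 6.18 ± 1.04 in Cebpg-/- and 4.81 ± 0.84 in WT (SD, n = 4 each), a difference that was not tested. Of the 20 markers 1 (Cd14) was called higher and none lower, with a median difference of 1.48. Over all genes 7.11% were called higher and 3.24% lower. The defining leukocyte gene Ptprc (CD45) read 5.93, 2.95, 5.20 and 4.73 in Cebpg-/-, against 1.73, 3.79, 3.79 and 4.07 in WT. Cebpg-/- replicate 2, with a marker mean of 4.75, lay within the WT range of 3.56 to 5.29. On that 1 array Il11 (6.60) and Clcf1 probe set 1437271_at (5.79) stood above all WT arrays, Clcf1 probe set 1437270_a_at (5.95) lay just below WT replicate 2, Stat3 (7.43 on 1426587_a_at) stood just below all of them, and Lifr (4.95) lay within the WT range. With the marker mean as a covariate the difference of Il11 was 1.24 (adjusted p = 0.0317) and that of Clcf1 1437271_at was 0.51 (adjusted p = 0.0479). Lifr (-0.39, adjusted p = 0.420), both Stat3 probe sets (-0.27 and -0.29, adjusted p = 0.363 and 0.297) and the other Clcf1 probe sets (0.52 and 0.37, adjusted p = 0.263 and 0.200) did not pass in that fit. Since the marker mean itself differed between the genotypes, that fit cannot fully tell genotype and marker level apart, for any of these genes. Over the whole array that fit called 284 probe sets higher and 185 lower, against 2170 and 1254 without the covariate. The Il6 difference was 0.63 with the covariate and did not pass (adjusted p = 0.435).

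**Figure D3:**
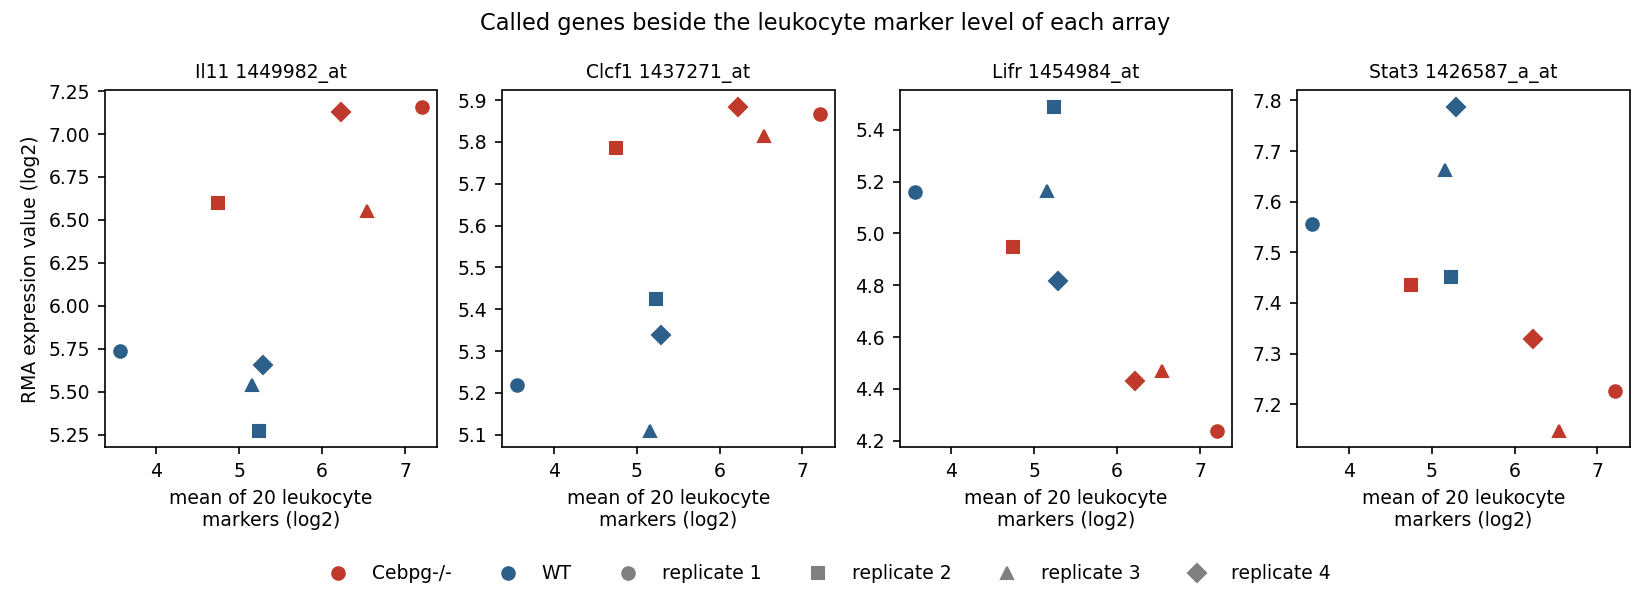
RMA expression values (log2) of Il11, Clcf1 (1437271_at), Lifr and Stat3 (1426587_a_at) against the mean of 20 leukocyte markers (log2) on the same array; red is Cebpg-/-, blue is WT, and symbols number the replicates. The Cebpg-/- array with the lowest marker mean, 4.75, has Il11 at 6.60, above every WT array, and Lifr at 4.95, within the WT range.

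Of the 9 genes Il6 and Il11 varied by an SD of at least 0.5 over the 8 arrays, and for these the most similar genes were sought by the root mean square difference between values centred on each gene's own mean. Closest to Il6 were Ntn1 (netrin 1; 0.23 on the log2 scale), Plac8 (0.26) and Lhx8 (a LIM homeobox factor; 0.28), none of them called. Ntn1 read 4.33, 5.59, 4.23 and 5.01 in Cebpg-/-, against 4.69, 4.62, 4.79 and 4.44 in WT. Its Cebpg-/- replicates 2 and 4 were above all WT arrays, as for Il6, and replicates 1 and 3 below all of them. Closest to Il11 were Mmp10 (stromelysin 2; 0.19), Angptl4 (an inhibitor of lipoprotein lipase; 0.21) and Tbc1d2 (0.22), which were higher in Cebpg-/- by 1.21, 1.32 and 1.07 (adjusted p = 0.00722, 0.0133 and 0.000547). Mmp10 read 5.10, 4.12, 4.50 and 5.04 in Cebpg-/-, against 3.61, 3.49, 3.21 and 3.60 in WT, so replicates 1 and 4 led in Cebpg-/- as they did for Il11. These genes were picked for their likeness over 18193 genes on 8 arrays. Il11 differed by genotype on the same arrays, so the picking itself favoured genes with such a difference. The p-values of its neighbours therefore add no separate evidence.

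**Figure D4:**
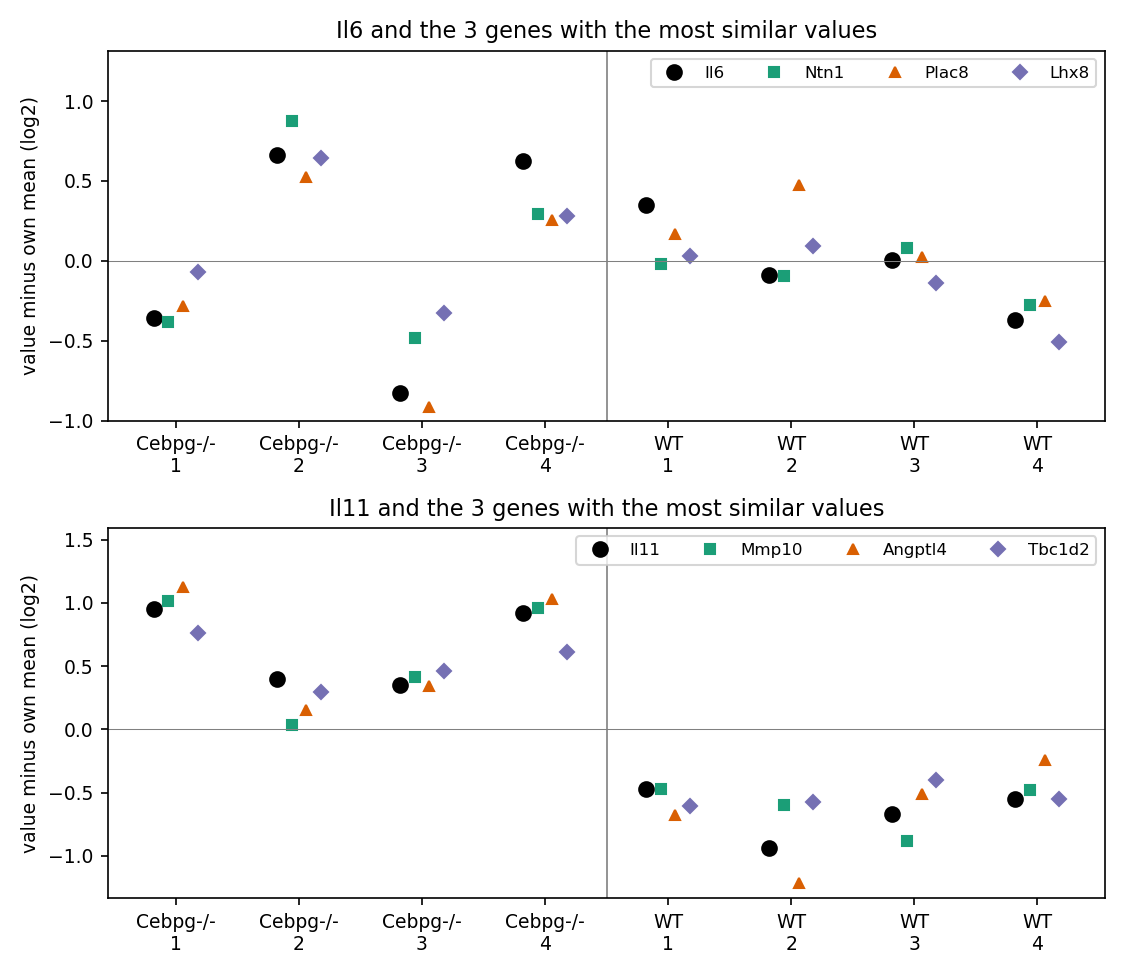
Values of Il6 (top) and Il11 (bottom) on each array with those of the 3 most similar genes, each minus its own mean over the 8 arrays (log2); Cebpg-/- arrays are at left and WT arrays at right. Il6 and its 3 neighbours are above their mean on Cebpg-/- replicates 2 and 4 and below it on 1 and 3, whereas Il11 and its 3 neighbours are above their mean on all Cebpg-/- arrays.

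The rest of the pathway was counted on the brightest probe set of each gene, against 7.11% of all genes higher and 3.24% lower, with a median over all genes of -0.00. Of 4 other ligands measured (Osm, Ctf1, Ebi3 and Il31) none passed. Ebi3, a subunit of IL-27, read 3.70, 2.46, 3.36 and 3.12 in Cebpg-/- and 2.24 to 2.56 in WT (adjusted p = 0.0702), with its only Cebpg-/- value inside the WT range on replicate 2. Osm lay between 2.53 and 2.62 in Cebpg-/- and between 2.57 and 2.71 in WT, under the array-wide median. Of 4 other receptor chains none passed, among them Il6ra, the IL-6 binding chain, at 4.00 to 4.27 in Cebpg-/- and 3.52 to 4.17 in WT (adjusted p = 0.264). Of the 4 Janus kinases none passed, with Jak3 at -0.18 and Jak1 at 0.08 (adjusted p = 0.181 and 0.506).

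Of 5 other STAT genes measured 1 rose, Stat5a, by 0.39 (adjusted p = 0.0380). Of 17 brakes and adaptors 1 rose, Socs5, a relative of Socs3. It read 8.28, 8.30, 8.24 and 8.39 in Cebpg-/-, against 7.90, 7.95, 8.08 and 7.80 in WT, with no overlap (0.37, adjusted p = 0.0143). Its other probe set (1423350_at) overlapped between the groups and did not pass (0.33, adjusted p = 0.0902). Of 4 genes of receptor release 1 rose: Adam17, the protease that sheds the IL-6 receptor from cells, by 0.29 (adjusted p = 0.0454). The other probe set of Stat5a (0.16, adjusted p = 0.273) and both others of Adam17 (0.19 and 0.56, adjusted p = 0.0631 and 0.0702) did not pass. The medians of these 3 lists were 0.06, 0.06 and 0.07.

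Of 32 genes known to respond to STAT3 in mouse or human cells 7 rose, 1 fell and 24 did not pass, with a median of 0.13. The 4 with the lowest p were Bcl2l1 (the survival factor BCL-XL; 0.43, adjusted p = 0.00745), Icam1 (an adhesion molecule; 1.07, 0.0111), Nfil3 (a leucine zipper repressor; -0.64, 0.0128) and Ccnd1 (cyclin D1; 0.62, 0.0139). Icam1 read 4.38, 4.72, 4.42 and 4.16 in Cebpg-/-, against 3.18, 3.89, 3.45 and 2.89 in WT, with no overlap. Bcl2l1 has 3 other probe sets, and none of them passed, whereas both other probe sets of Ccnd1 rose, by 0.67 and 0.79. The other genes that rose were Pim3, Saa3, Timp1 and Lcn2, the last with both means under the array-wide median. Of 14 inflammatory and feedback genes, listed together as upstream of Il6, 4 rose, none was called lower and 10 did not pass, with a median of 0.37. Among those that did not pass, Il1rn differed by -0.63 (adjusted p = 0.0505), with all Cebpg-/- values below all WT values. Those that rose were Ptges (prostaglandin E synthase; 1.5, adjusted p = 0.000935), Ier3 (an immediate early gene; 0.78, 0.00162), Nfkbia (the NF-κB inhibitor; 0.49, 0.0163) and Ptgs2 (cyclooxygenase 2; 0.39, 0.0364). The leukocyte marker level was higher on 3 of the 4 Cebpg-/- arrays than on any WT array, and its part in these list counts was not tested. All these genes also respond to signals other than IL-6, and the lists were chosen with earlier results of these data known.

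**Figure D5:**
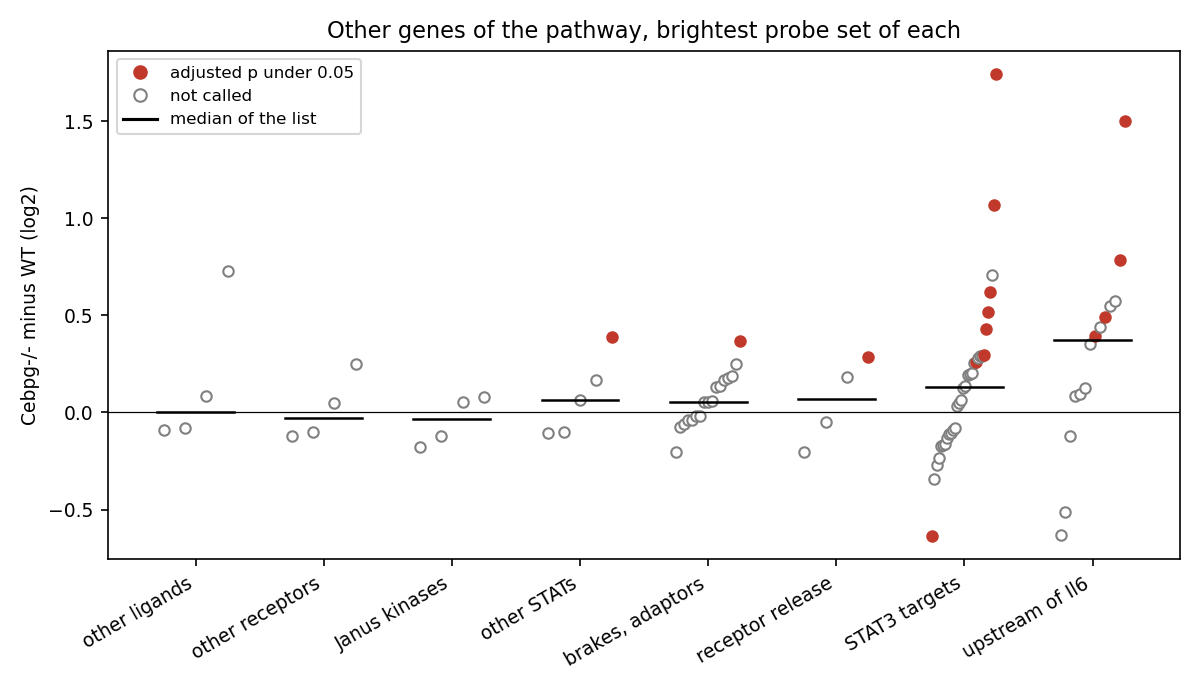
Difference of Cebpg-/- minus WT (log2) for the other measured genes of the pathway, 1 point per gene (brightest probe set), grouped by list; red points have an adjusted p under 0.05 over all probe sets and black lines are list medians. The 4 other ligands, 4 other receptor chains and 4 Janus kinases hold no called gene, and the medians of the STAT3 targets and of the list labelled upstream of Il6 are 0.13 and 0.37.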

How the data were processed

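Total RNA of 8 MEF samples (4 Cebpg-/- and 4 WT, grouped by sample title) was hybridised to 1 Affymetrix array each. The authors deposited 1 log2 value for each probe set on each array, per the submitters' processing notes the output of RMA. Its version and settings and the genome build were not given in the sources used here. The method normalizes across arrays and compresses changes of dim probe sets. The number of arrays, not a depth, limits precision, and no background calls were made.

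Of 45101 probe sets 64 controls were left out. The platform's annotation names 1 gene for 34945 probe sets, several for 932 and none for 9160; symbols of 34741 were updated by Entrez number through RefSeq (GRCm38.p6). The 45037 probe sets that are not controls went into limma (version 3.58.1, R 4.3.3; lmFit and eBayes, genotype only), p-values were adjusted over all of them, and the fit was tested on simulated data. A gene in a list is its probe set with the highest mean.

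Named are all 10 genes, Cebpg, up to 4 called members per pathway list by lowest p (at most 2 as values where none passed), and the 3 genes most like each member with an SD of at least 0.5. The members and lists were chosen with earlier results of these data known. The marker genes, the other probe sets of genes in the lists, and the remaining called STAT3 targets were named after their values were seen. Alternatives were quantile normalization, subtracted array medians, a filter on dim probe sets, an intensity trend with a robust variance fit, weights per array, replicate number as block, 1 value per gene, a leukocyte marker covariate, a threshold of 0.1 and leaving out each array.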

Additional observations from a re-analysis of the deposited data

Results flagged for a closer look

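Each of the 24 probe sets and the leukocyte marker mean was searched in each genotype for 1 array far from the other 3, which made 50 groups, and 3 stood out, where chance flags about 1 in 20. The leukocyte marker mean of WT replicate 1 was 3.56, and the other WT arrays lay between 5.16 and 5.29. The Lifr probe set 1425107_a_at read 1.84 on WT replicate 3, below 2.09 to 2.13 on the other WT arrays. The Stat3 probe set 1459961_a_at read 2.28 on Cebpg-/- replicate 1, where the other Cebpg-/- arrays all read 2.25. Both probe sets lie under the array-wide median and gave no call.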

How the results depend on the processing

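Of the 24 probe sets 18 kept their direction in all 18 alternatives that gave them a value, and 8 kept their side of the threshold as well, among them Il11 and Clcf1 1437271_at. The threshold of 0.1, the dim filter, the intensity trend, the replicate block and taking the brightest probe set leave each difference unchanged. Direction could not turn in those settings. The probe sets called higher numbered 2 after quantile normalization and 2 with the leukocyte marker covariate, against 4 as reported, and those called lower numbered 1 after subtracting array medians and 0 with the covariate, against 3. With 1 value per gene 2 genes were higher by either rule, and averaging probe sets within genes left 1 lower. Leaving out 1 array gave 2 to 5 higher and 0 to 4 lower. Over the whole array the counts of 2170 higher and 1254 lower became 284 and 185 with the covariate, 3505 and 2290 at a threshold of 0.1, and 929 to 2511 higher and 531 to 1851 lower without 1 array. Counted and adjusted over 18193 genes in place of 45037 probe sets, 1602 genes were higher and 746 lower by their brightest probe set, and 1315 and 662 by the mean of their probe sets. Of the calls 63.4% were higher, against 53.4% after quantile normalization and 75.5% after subtracting medians. With the replicate number as a block 1203 were higher and 708 lower, and of the 24 probe sets 3 were higher and 1 lower. Same-numbered arrays deviated together with correlations of -0.271 to 0.133, and 1 of 8 arrays correlated best with its own number. These values showed no pairing by number, but they cannot exclude one. Directions turned only for differences that did not pass: Il6 (-0.0132 after quantile normalization, -0.0747 with array weights, -0.162 to 0.336 without 1 array), Lif 1450160_at (0.0152 after quantile normalization, 0.0179 after subtracting medians, 0.0097 with weights, -0.0655 to 0.0255 without 1 array), Il6st 1452843_at (-0.0045 after quantile normalization, -0.0968 as a gene mean, -0.0214 to 0.0786 without 1 array) and Osmr (0.0126 for 1418674_at and 0.160 for 1418675_at with the covariate, -0.204 to 0.0309 for 1418675_at and -0.0935 to 0.0048 for 1459217_at without 1 array). The causes were not tested. In the 7 dim ones of the 24 probe sets, of Lif, Osmr, Lifr and Stat3, a change may be understated, and none of them was called.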
